A study of Mus musculus with 8 samples.

Results

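The anterior HoxB and HoxC genes were examined in the zone of polarizing activity (ZPA) and in the rest of the limb bud of the mouse. The set comprised Hoxb2, Hoxb3, Hoxb4, Hoxb5, Hoxb6, Hoxb8, Hoxc4, Hoxc5, Hoxc6 and Hoxc8, the members of both clusters in paralog groups 2 to 8 that were listed for study, and was taken by gene symbol. Of these 10 genes, 9 had at least 1 probe set that carries no other gene symbol, with 15 such probe sets among 45037 on the array. Hoxb8 shared its only probe set with Hoxb7. ZPA cells were GFP-positive and non-ZPA cells GFP-negative cells, sorted by fluorescence from dissociated E10.5 limb buds of embryos heterozygous for the Shhgfpcre allele, which both groups carry. The labels do not say whether forelimbs, hindlimbs or both were used, and GFP-negative cells include every other cell type of the limb. The 8 samples gave 7 distinct arrays, 3 ZPA and 4 non-ZPA, because the columns of ZPA replicates 1 and 2 were the same to within 0.5 intensity units and were counted as 1 array, called ZPA array 1+2. Nothing in the labels says that samples came from separate litters or sorts, so that p-values measure only the spread between these arrays, which may be technical.

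Hox genes encode homeodomain transcription factors that bind DNA with Pbx and Meis cofactors and give cells a position along the body axis. They lie in clusters in which genes of low paralog number are switched on earlier and farther forward than genes of high number. In mouse, Hox genes of paralog groups 4 and 5 activate the forelimb gene Tbx5, the group 5 genes together keep Shh at the posterior margin of the forelimb, and Hoxb8 placed in the anterior forelimb can start an additional Shh domain there.

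The promoter table from RefSeq (GRCm38.p6) held 3 of the 10 genes. The 250 bases before the listed start are shown for Hoxc4, which had the smallest adjusted p of the set, for its paralog Hoxb4, which did not pass the test, and for Hoxb8, which has no probe set of its own. The regions are chr15:103034145-103034394 (plus strand) for Hoxc4, chr11:96318017-96318266 (plus strand) for Hoxb4 and chr11:96281655-96281904 (plus strand) for Hoxb8. Capitals mark matches, on either strand, to the nuclear receptor motif AGGTCA, the Cdx site TTTATG and the Pbx and Hox site TGATNNAT.
Hoxc4: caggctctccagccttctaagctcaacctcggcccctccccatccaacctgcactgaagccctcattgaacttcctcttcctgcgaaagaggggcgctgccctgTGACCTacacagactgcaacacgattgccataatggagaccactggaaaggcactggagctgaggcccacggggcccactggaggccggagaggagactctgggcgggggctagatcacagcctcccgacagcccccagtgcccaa
Hoxb4: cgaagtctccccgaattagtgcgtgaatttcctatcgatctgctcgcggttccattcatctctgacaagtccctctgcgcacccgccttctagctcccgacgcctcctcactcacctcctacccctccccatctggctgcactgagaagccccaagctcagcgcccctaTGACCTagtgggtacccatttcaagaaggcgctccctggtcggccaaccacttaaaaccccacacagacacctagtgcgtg
Hoxb8: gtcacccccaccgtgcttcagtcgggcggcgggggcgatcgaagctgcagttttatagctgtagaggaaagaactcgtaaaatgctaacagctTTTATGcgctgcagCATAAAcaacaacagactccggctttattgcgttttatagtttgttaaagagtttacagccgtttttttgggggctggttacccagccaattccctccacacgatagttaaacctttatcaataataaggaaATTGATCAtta
The Hoxc4 and Hoxb4 windows each held 1 receptor motif and no match to the other motifs, and the Hoxb8 window held 2 Cdx sites and 1 Pbx and Hox site, with no receptor motif. No matches of different motifs overlapped. Of 32851 windows of this length in the table, 14.02% held the receptor motif, 10.76% the Cdx site and 7.68% the Pbx and Hox site. The G and C content was 62% in the Hoxc4 window, 58% in the Hoxb4 window and 44.4% in the Hoxb8 window, against a median of 52.4%. These matches are letters in a window and were not tested for binding.

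Both clusters also encode microRNAs. Mature sequences of 3 of them, 2 from loci beside or inside genes of the set and 1 known to target Hoxb8, are given from RefSeq (GRCm38.p6, plus strand) because no probe set on the array carries a symbol of the 4 microRNA genes found in these clusters. Capitals mark the seed, bases 2 to 8.
mmu-miR-196a-5p: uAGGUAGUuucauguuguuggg
mmu-miR-10a-5p: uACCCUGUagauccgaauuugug
mmu-miR-615-3p: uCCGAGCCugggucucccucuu
The sequence of miR-196a-5p is encoded in both clusters, between Hoxb13 and Hoxb9 and between Hoxc10 and Hoxc9, and in mouse it directs cleavage of Hoxb8 mRNA. The sequence of miR-10a-5p lies between Hoxb5 and Hoxb4, inside the listed span of Hoxb3, and miR-615-3p lies inside Hoxc5. The seeds of the 3 differ.

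The arrays were scaled by the authors to a common trimmed mean and had median intensities between 75.2 and 133. Signal of the spike-in control probe sets was 1.41 to 9.62 times the non-ZPA mean on the ZPA arrays and 0.785 to 1.14 times on the non-ZPA arrays. The ratio of the 3 prime to the 5 prime Actb probe set was 3.18 to 21.6 in ZPA cells, highest on array 4, and 2.04 to 5.37 in non-ZPA cells. Shh, whose reporter defined the sort, read 6226, 12149 and 11191 in ZPA cells, against 203 to 1085 in non-ZPA cells. Markers of limb mesenchyme were present in both groups, with summed intensities of 19907 to 24947 in ZPA cells and 14097 to 23708 in non-ZPA cells. The sum took 1 probe set per gene, that of the highest mean over the arrays. The arrays fall into 2 runs, by their replicate numbers and scan records. Replicates 3 and 4 of each group made up run 2, and the remaining 3 arrays, ZPA array 1+2 with non-ZPA replicates 1 and 2, made up run 1. The scan record of 1 sample was missing, and the other records fell on the same sides.

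The question was how genes that mark position along the body axis were distributed between the ZPA and the rest of the limb. Hoxc5, Hoxc4 and Hoxb3 were lower in ZPA cells, by 16.4-fold, 10.8-fold and 6.10-fold, and no gene of the set passed the test in the other direction. Testing required values above a filter level, the 40th percentile of the array (50.8 to 91.9 intensity units), in 4 or more of the 8 columns. Of the 15 probe sets, 13 were tested with limma over all 27816 tested probe sets, and 3 were lower and 0 higher at a Benjamini-Hochberg adjusted p under 0.05. Over all tested probe sets 1.36% were called lower and 0.381% higher. The median log2 difference, ZPA minus non-ZPA, was -1.56 over the 13 and 0.03 over all tested probe sets, and 12 of the 13 lay below 0, against 48.6% of all. With the run as a block in the fit, 12 again lay below 0, against 47.6% of all. All 13 were above the level on all 4 non-ZPA arrays, which alone met the filter, and 4 were above it on every array. Of the 13, 3 reached the level in no ZPA column and were tested only through their non-ZPA signal. These counts therefore describe the tested probe sets and not the whole set. In bulk samples fewer cells of a type and less RNA per cell cannot be told apart. Spike-in signal was also higher on every ZPA array (1.41 to 9.62) than on every non-ZPA array (0.785 to 1.14). Differences between the arrays that go with this signal cannot be told apart from the sort.

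**Figure D1:**
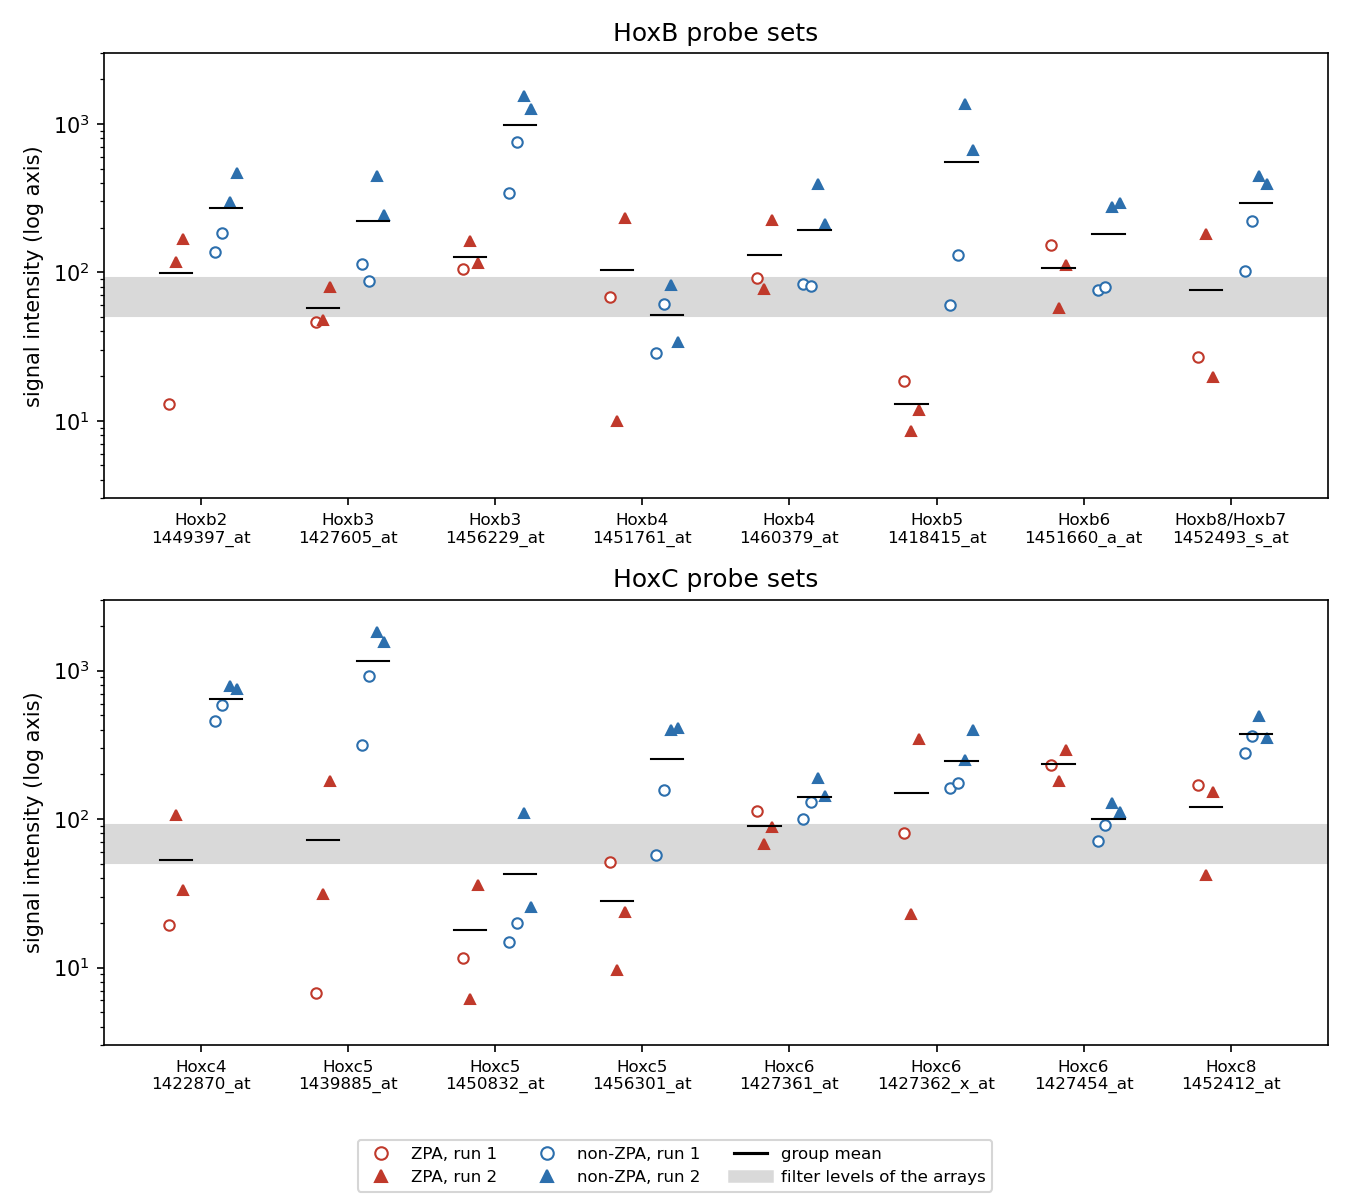
Signal intensity (log axis) of the 15 probe sets of the set and of the probe set shared by Hoxb8 and Hoxb7 on every array, ZPA left of non-ZPA. Open circles are run 1, filled triangles run 2, black lines group means, and the grey band spans the filter levels of the arrays (50.8 to 91.9). Hoxb5 and the Hoxc5 probe set 1456301_at lie below the non-ZPA arrays on every ZPA array.

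Hoxc5, of the group linked to posterior restriction of Shh, fell most. Its probe set 1439885_at read 6.69, 31.1 and 179 on ZPA arrays 1+2, 3 and 4, against 314, 918, 1823 and 1558 on non-ZPA replicates 1 to 4. Every ZPA array lay below every non-ZPA array, and only ZPA array 4 was above the filter level. The difference was 16.4-fold (log2 difference -4.03 ± 0.70 SE, limma adjusted p = 0.0131). With every value below the filter level raised to that level, it was 8.67-fold. In that fit ZPA arrays 1+2 and 3 stood at their filter levels, 91.9 and 50.8, so that the size depends on the level chosen.
The probe set 1456301_at of Hoxc5 read 51.3, 9.60 and 23.5 in ZPA cells and 57.7, 157, 395 and 410 in non-ZPA cells. It had the same direction and no overlap but did not pass (log2 difference -2.41 ± 0.65, limma adjusted p = 0.0789). The third, 1450832_at, was above the filter level on 1 array and was not tested. It read 11.5, 6.10 and 36.1 in ZPA cells and 14.9, 19.9, 111 and 25.6 in non-ZPA cells.

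Hoxc4, the neighbour of Hoxc5 at the anterior end of the HoxC cluster, read 19.3, 107 and 33.1 on the ZPA arrays and 456, 584, 783 and 757 on the non-ZPA arrays. The groups lay far apart, with only ZPA array 3 above the filter level. Hoxc4 was 10.8-fold lower (log2 difference -3.44 ± 0.46, limma adjusted p = 0.00329), and 5.92-fold lower with values raised to the filter level. Hoxb3, which is known for patterning the hindbrain and the pharyngeal organs, was the HoxB gene that passed. Its probe set 1456229_at read 105, 162 and 116 in ZPA cells and 344, 753, 1551 and 1257 in non-ZPA cells, above the filter level on every array. It was 6.10-fold lower (log2 difference -2.61 ± 0.47, limma adjusted p = 0.0161). The weaker Hoxb3 probe set 1427605_at read 46.5, 47.8 and 79.3 in ZPA cells and 114, 87.0, 444 and 242 in non-ZPA cells. It did not overlap between groups and did not pass (log2 difference -1.46 ± 0.55, limma adjusted p = 0.182).

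Hoxc4 kept its call when any single array was left out. Hoxc5 lost it without ZPA array 3 (limma adjusted p = 0.0574), and both Hoxc5 and Hoxb3 lost theirs without non-ZPA replicate 3 (0.0602 and 0.0735) or 4 (0.0523 and 0.0665), while Hoxb3 also lost it without non-ZPA replicate 2 (0.0541). Without ZPA array 1+2, which had the highest spike-in signal, 6 probe sets of the set were called lower and 0 higher, in a refit that called 5.68% of all tested probe sets lower. Without non-ZPA replicate 1, 5 were lower and 0 higher, where 0.636% of all were lower. Among the 3 called genes the size for Hoxc5 moved most, to a log2 difference of -3.34 without ZPA array 1+2 and -4.89 without ZPA array 4.

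Hoxb5, which shares its paralog group with Hoxc5, was low on every ZPA array. It read 18.5, 8.50 and 11.9 in ZPA cells, below the filter level throughout, and 60.3, 131, 1356 and 663 in non-ZPA cells. The groups did not overlap, yet the non-ZPA arrays differed widely among themselves, and the gene missed the threshold (log2 difference -3.48 ± 0.82, limma adjusted p = 0.0525). A block for run gave -3.77 ± 0.69 (limma adjusted p = 0.0126). Both sizes rest on ZPA signals under the filter level: with values raised to the filter level the difference was 3.59-fold, against 11.1-fold as measured, and did not pass (limma adjusted p = 0.216). The antisense transcript of this locus, Hoxb5os, was chosen after its values were seen. It read 115, 266 and 68.8 in ZPA cells and 197, 281, 1006 and 904 in non-ZPA cells (log2 difference -1.76 ± 0.59, limma adjusted p = 0.141, and 0.0488 with a block for run).

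Hoxc8, a gene of the trunk at and behind the forelimb level, had every ZPA array below every non-ZPA array, at 171, 41.7 and 152 in ZPA cells and 279, 363, 497 and 351 in non-ZPA cells. It did not pass the test (log2 difference -1.65 ± 0.46, limma adjusted p = 0.0835). Hoxb2, known from hindbrain and facial nerve development, read 13.0, 118 and 167 in ZPA cells and 137, 185, 300.0 and 468 in non-ZPA cells, with the groups overlapping through ZPA array 4. Its difference of -1.56 ± 0.62 did not pass (limma adjusted p = 0.209). A block for run gave -1.83 ± 0.44 (limma adjusted p = 0.0427). The Hoxb2 difference rested on the value of 13.0 on ZPA array 1+2, below the filter level: without that array it was -0.75 (limma adjusted p = 0.356), and with values raised to the filter level -0.92 (limma adjusted p = 0.282). In the fit with a block for run, 5 of the 13 probe sets were lower and 0 higher, where 2.26% of all tested probe sets were lower and 0.737% higher. Every ZPA array lay below every non-ZPA array for 7 of the 13, against 8.87% of all tested probe sets. Among the 7 were Hoxb5, Hoxb3 1427605_at and Hoxc5 1456301_at, which were tested only through their non-ZPA signal. All 13 tested probe sets met the filter through their non-ZPA arrays alone. The filter can therefore favour this order, most for the 3 named, so that the count is a description.

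Hoxb4, best known from blood stem cells, and Hoxb6, a gene of the lateral plate mesoderm, showed no difference past the test. Hoxb4 1460379_at read 91.1, 77.5 and 223 in ZPA cells and 83.8, 80.4, 391 and 211 in non-ZPA cells, with a 95% interval of the log2 difference from -1.60 to 0.86. Its other probe set, 1451761_at, was not tested, with 103 ± 114 in ZPA cells (SD, n = 3) and 51.2 ± 24.7 in non-ZPA cells (SD, n = 4). Hoxb6 read 153, 57.2 and 112.5 in ZPA cells and 76.3, 79.6, 277 and 295 in non-ZPA cells, with an interval from -1.73 to 0.67. The groups overlapped for both genes, and the intervals include differences of more than 2-fold in the downward direction.

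The 3 probe sets of Hoxc6, a gene expressed at forelimb level, did not go the same way. The probe set 1427454_at was the only member of the set with a positive difference. It read 231, 181 and 292 in ZPA cells and 70.9, 91.9, 129 and 112 in non-ZPA cells, with every ZPA array above every non-ZPA array, an order shared by 8.17% of all tested probe sets. Its difference was 2.15-fold (log2 difference 1.10 ± 0.40) and did not pass (limma adjusted p = 0.173). At an unadjusted p under 0.05, 8 of the 13 probe sets were lower (9.94% of all tested) and 1 was higher (8.03% of all).
The probe sets 1427361_at and 1427362_x_at of Hoxc6 had log2 differences of -0.56 ± 0.43 and -1.15 ± 0.64, and neither passed. The first read 114, 68.4 and 88.1 in ZPA cells and 99.5, 130.2, 190 and 144 in non-ZPA cells. The second read 81.0, 23.0 and 348 in ZPA cells and 162, 175, 248 and 396 in non-ZPA cells. Both pairs of groups overlapped, the second through ZPA array 4. The platform table names Hoxc6 alone for all 3 probe sets, and which Hoxc6 transcript each one detects was not tested.

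Hoxb8 could be read only together with Hoxb7, through the probe set 1452493_s_at. It read 26.8, 183 and 19.7 in ZPA cells and 103, 222, 448 and 395 in non-ZPA cells, with overlap through ZPA array 3. The log2 difference was -2.01 ± 0.65 (limma adjusted p = 0.126, and 0.0546 with a block for run). The probe set of Hoxb7 alone was not tested, and read 3.90 to 8.70 in ZPA cells and 11.9 to 144 in non-ZPA cells. Which of these genes the shared signal comes from cannot be told apart.

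**Figure D2:**
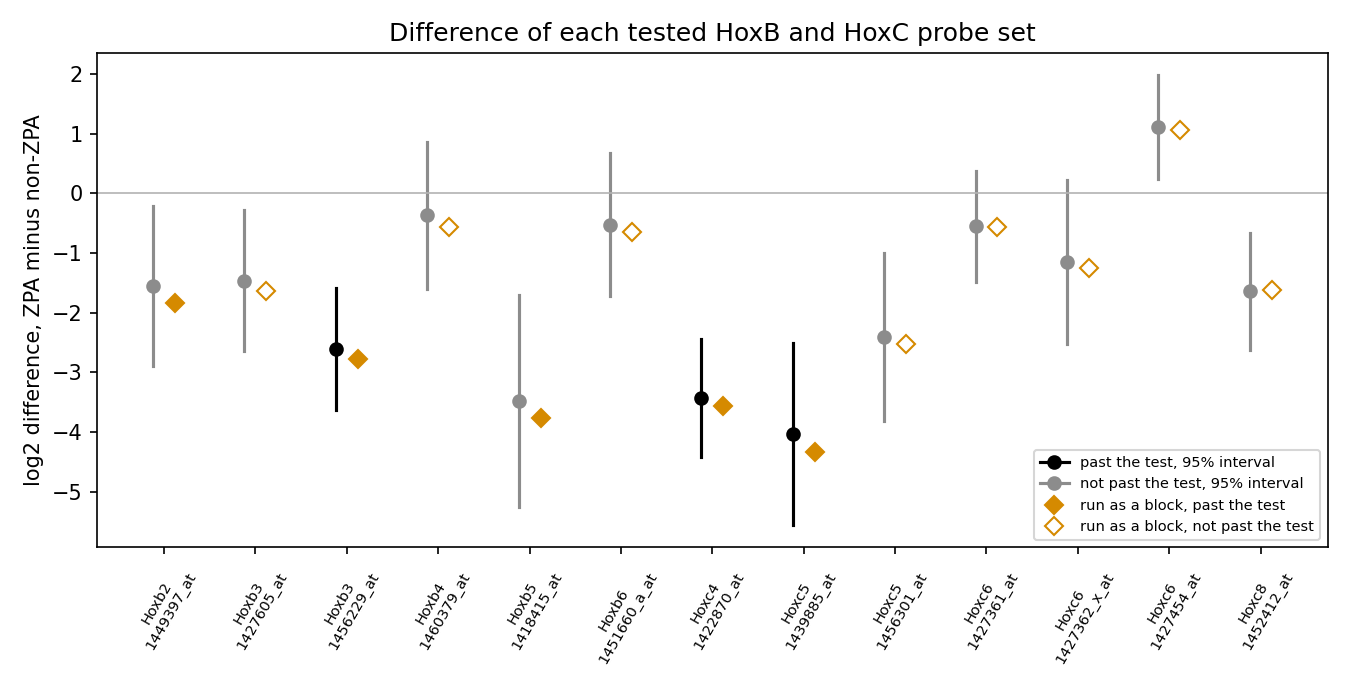
The log2 difference, ZPA minus non-ZPA, of the 13 tested probe sets, with 95% intervals from the fit without the run (circles) and the value with the run as a block (diamonds, filled where adjusted p is under 0.05). Circles are black where adjusted p is under 0.05 and grey otherwise. The differences run from -4.03 for Hoxc5 to 1.10 for Hoxc6 1427454_at, and 12 of 13 lie below 0.

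The set also varied within the non-ZPA cells, by run. In 12 of the 13 tested probe sets both run 2 non-ZPA arrays read higher than both run 1 non-ZPA arrays, which held for 21.7% of all tested probe sets, and the opposite order held for 0 (23.8% of all). Hoxc8 was the exception. The log2 difference of non-ZPA cells, run 2 minus run 1, had a median of 1.60 over the 6 HoxB probe sets, from 1.15 for Hoxb2 to 3.19 for Hoxb5, and of 0.56 over the 7 HoxC probe sets, from 0.37 for Hoxc8 to 1.89 for Hoxc5 1456301_at. Hoxb5 averaged 1009 in run 2 and 95.6 in run 1, and Hoxb3 1456229_at averaged 1404 in run 2 and 549 in run 1.
In the limma fit of group and run, 0 of the 13 passed the test for run after adjustment, where 0.036% of all tested probe sets were higher in run 2 and 0.126% lower. The difference was above 0 for 12 of the 13 (45.7% of all). At an unadjusted p under 0.05, 6 were higher in run 2 (4.03% of all tested) and 0 lower (6.63% of all). With 2 non-ZPA arrays a run, the difference between runs is therefore given as a description. Within non-ZPA cells alone, in the fit with an interaction of group and run, 0 of the 13 passed in either direction (0.0108% of all higher in run 2, 0.0395% lower). Within ZPA cells 1 was higher in run 2 (4.2% of all), Hoxb2, which read 118 and 167 in run 2 and 13.0 in run 1. Run 1 is a single ZPA array there, below its filter level of 91.9 for this gene, so that its spread is taken from the other arrays and no size is given.

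Genes that mark the hindlimb differed between the same runs in the opposite direction. Hoxc10, a HoxC gene of the hindlimb level, read 590.0, 4.00 and 21.6 on the ZPA arrays, against 533, 1064, 72.9 and 35.8 on the non-ZPA arrays. It was lower in run 2 (log2 difference, run 2 minus run 1, -3.89 ± 0.48, limma adjusted p = 0.00781). The hindlimb T-box gene Tbx4 (1456033_at) read 1021, 94.3 and 9.60 in ZPA cells and 1259, 1942, 112 and 213 in non-ZPA cells, and was lower in run 2 by the same test (-3.64 ± 0.51, limma adjusted p = 0.0132). The hindlimb gene Pitx1 (1449488_at) was likewise lower in run 2 (-4.05 ± 0.45, limma adjusted p = 0.00547).
All 3 genes were high on the run 1 arrays of both groups and low on the run 2 arrays of both groups. The forelimb gene Tbx5 (1425695_at) read 639, 1459 and 3293 in ZPA cells and 952, 1193, 1190 and 1099 in non-ZPA cells, with no difference between runs past the test (0.76 ± 0.41, limma adjusted p = 0.522). Within non-ZPA cells the median log2 difference, run 2 minus run 1, was also above 0 for some lists of other cell types. It was 1.12 over 11 tested probe sets of endothelium and 1.02 over 7 of muscle precursors, beside 1.42 over the 13 of the set. The endothelial receptor gene Kdr averaged 731 in run 2 and 164 in run 1. The muscle precursor list was split. Met (1434447_at) averaged 1561 in run 2 and 669 in run 1, and the tested probe sets of Pax3 and Lbx1 were also higher in run 2. Myf5 averaged 142 in run 2 and 582 in run 1, Myod1 (1418420_at) 33.2 and 318, and Myog 79.05 and 468. The part of limb type and of these cell types in the run difference of the HoxB and HoxC genes was not tested, and other differences between the runs cannot be told apart from it.

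**Figure D3:**
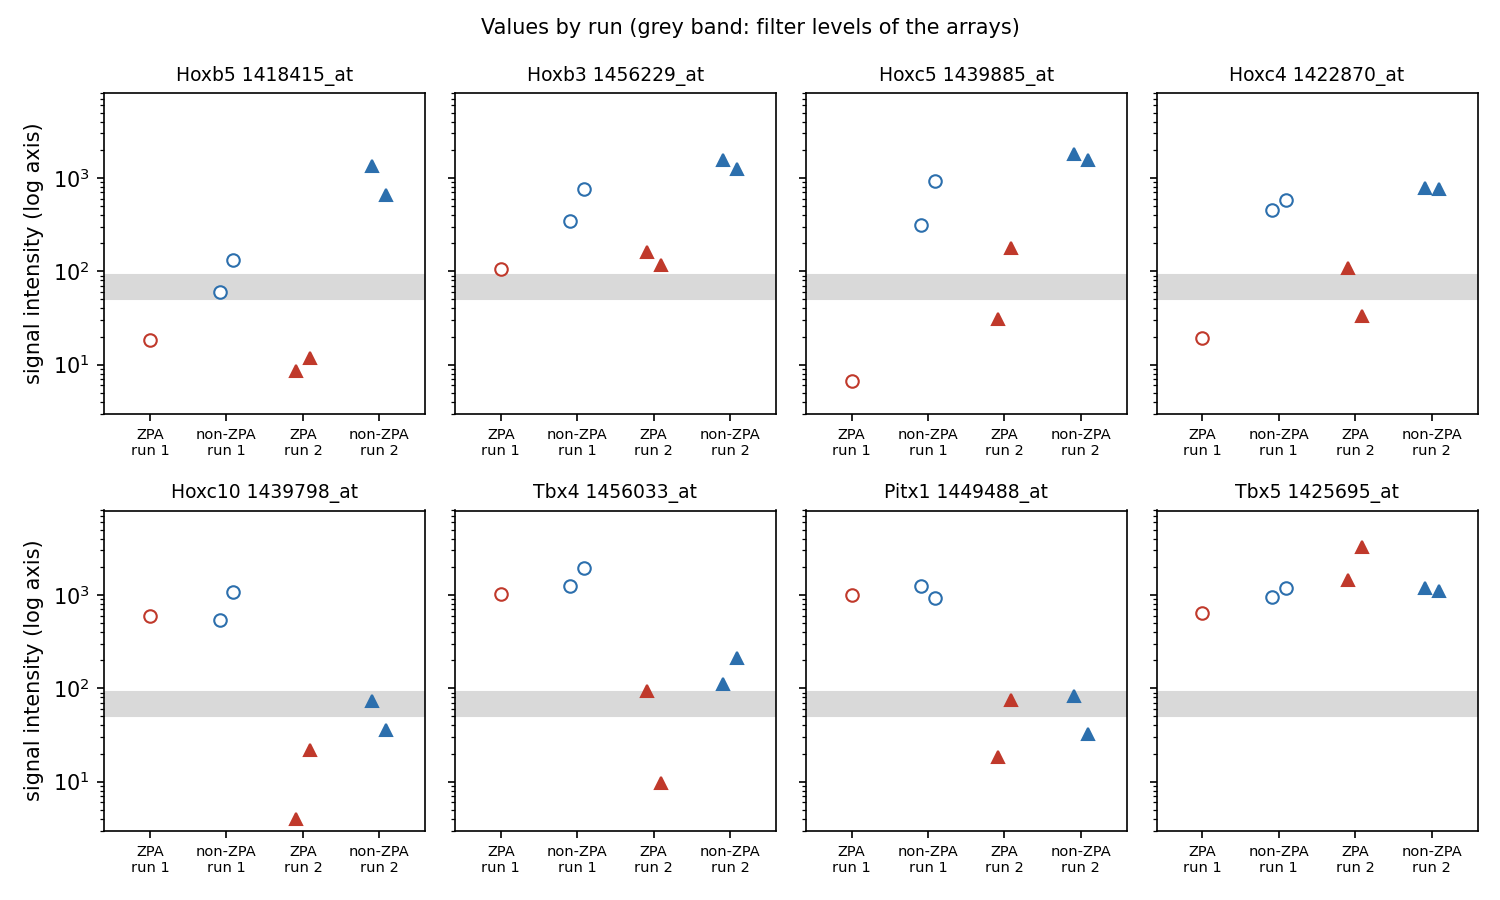
Signal intensity (log axis) by run, with ZPA left of non-ZPA within each run and the filter levels as a grey band, for 4 genes of the set (top) and 4 limb-type genes (bottom). Hoxb5 reaches 663 and 1356 only in run 2 non-ZPA cells, while Hoxc10, Tbx4 and Pitx1 are high in both groups of run 1.

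The difference between ZPA and non-ZPA cells was next set side by side in the 2 runs, in the same interaction fit. The single ZPA array of run 1 is assumed there to vary like the other arrays. In run 1, 4 of the 13 probe sets were lower in ZPA cells (3.64% of all tested), and in run 2, 5 were (2.2% of all). Hoxc4 differed by -3.91 in run 1 and -3.34 in run 2 (limma adjusted p = 0.00877 and 0.0100), and Hoxc5 1439885_at by -4.61 and -4.15 (limma adjusted p = 0.0139 and 0.0141). Hoxb3 1456229_at differed by -2.13 in run 1 and -3.21 in run 2 (limma adjusted p = 0.0472 and 0.00743). These 3 were lower in ZPA cells in both runs, with the run 1 ZPA values of Hoxc4 and Hoxc5 below the filter level. Hoxb5 differed by -1.62 in run 1 and -5.21 in run 2 (limma adjusted p = 0.223 and 0.00465). The test of that difference between runs did not pass (-3.59 ± 0.95, limma adjusted p = 0.0970). The interaction passed for 0 of the 13 probe sets (0.999% of all tested), and at an unadjusted p under 0.05 for 3 (18.5% of all). All 3 were below 0, as were 8.67% of all tested probe sets at that p.

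The genes of the set tended to be high and low on the same arrays. Over the 7 arrays, Pearson's r of log2 values between pairs of the 12 other probe sets lay between 0.26 and 0.96 (median 0.76, 66 pairs), whereas Hoxc6 1427454_at was negatively related to 10 of the 12 (median -0.48). The arrays share the group difference and the runs, so that these values are a description. Most like Hoxc5 1439885_at among 23381 tested probe sets of other named genes were Plxna2 (r = 0.987), a semaphorin receptor gene, Met (0.984), the hepatocyte growth factor receptor gene of migrating muscle precursors, the Wnt agonist gene Rspo1 (0.982), Tubgcp4 (0.979), of the gamma-tubulin complex, and Rapgef5 (0.979). The gene most like Hoxc4 was Usp37 (r = 0.996), for Hoxb3 it was the nuclear receptor gene Nr2f1 (0.995), for Hoxb2 Cdca2 (0.992), for Hoxb5 Samhd1 (0.990), for Hoxc8 Dact3 (0.987), for the Hoxc6 probe set 1427362_x_at Kif5a (0.983), for Hoxb6 Ankmy2 (0.978) and for Hoxb4 Mgat4b (0.952).

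The same test was read for the paralogs in the other clusters. Of 10 tested probe sets of HoxA and HoxD genes in groups 1 to 8, 1 was lower (1.36% of all tested) and 0 higher (0.381%). Their median log2 difference was 0.00, and 5 lay below 0 (48.6% of all). The 1 called lower was Hoxa5 1443803_x_at, which read 931, 837 and 909.8 in ZPA cells and 2652, 2028, 3249 and 1924 in non-ZPA cells (2.67-fold lower, log2 difference -1.42 ± 0.31, limma adjusted p = 0.0361). The other Hoxa5 probe set had a log2 difference of -0.04 (adjusted p = 0.966). In group 5, then, Hoxa5 and Hoxc5 each had a probe set past the test and Hoxb5 did not. In group 3 the 3 tested Hoxa3 probe sets had differences of 0.76, 0.91 and 1.31 and Hoxd3 had -1.07, none of them past the test, whereas Hoxb3 fell. Whether the HoxB and HoxC genes differ from these paralogs as a set was not tested. Of the other HoxB and HoxC genes 2 probe sets were tested, Hoxb9 at 0.31 and Hoxc10 at -1.57, and neither passed.

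**Figure D4:**
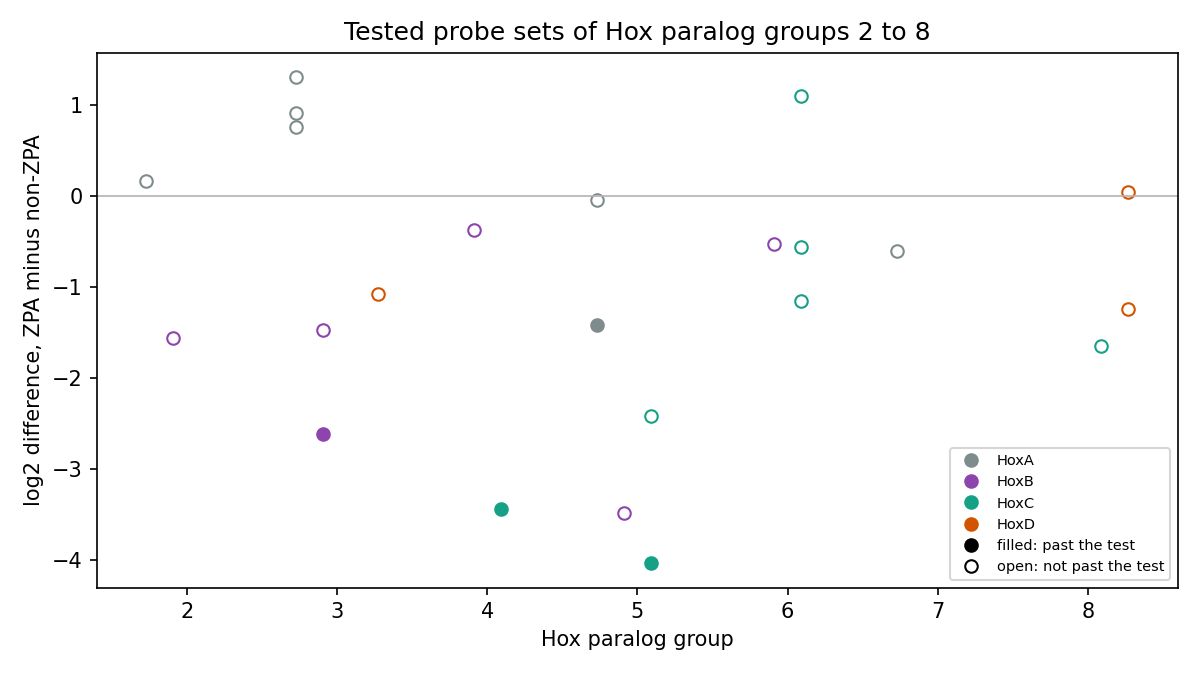
The log2 difference, ZPA minus non-ZPA, of every tested probe set of Hox paralog groups 2 to 8, by paralog group and cluster, filled where limma's adjusted p is under 0.05. Filled points are Hoxb3 at -2.61, Hoxc4 at -3.44, Hoxc5 at -4.03 and Hoxa5 at -1.42.

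Cofactors with which Hox proteins bind DNA were read in the same way. Of 15 tested probe sets of Pbx, Meis and Pknox genes 2 were lower and 0 higher. Of the 15, 14 lay below 0 (48.6% of all tested), and the median log2 difference was -1.44, against 0.03 over all tested probe sets. For the HoxB and HoxC set, 12 of 13 lay below 0, with a median of -1.56. The 2 were Meis2 1457632_s_at, with 343, 2341 and 1249 in ZPA cells and 3406, 6096, 10568 and 9375 in non-ZPA cells (6.60-fold, limma adjusted p = 0.0308), and Pbx2 1449261_at, with 140.4, 188 and 423 in ZPA cells and 1283, 1695, 2332 and 1347 in non-ZPA cells (6.78-fold, limma adjusted p = 0.00523). The other Pbx2 probe sets did not pass. Pbx2 1418893_at overlapped between groups, at 1204, 1166 and 1921 in ZPA cells and 1358, 1564, 2423 and 1597 in non-ZPA cells. Pbx2 1418894_s_at did not overlap, at 563, 706 and 1470 in ZPA cells and 2059, 2205, 3213 and 1907 in non-ZPA cells. With a block for run, 8 of the 15 were lower and 0 higher. Among all tested probe sets 2.26% were lower and 0.737% higher with the block, and 1.36% and 0.381% without it. Among 26 tested probe sets of genes that regulate Hox clusters, which include Cdx, retinoic acid and chromatin genes, 1 was lower and 0 higher, with a median of 0.02. It was the histone acetyltransferase gene Kat6a (1436315_at, 2.83-fold lower, limma adjusted p = 0.0430), known in mouse to keep Hox genes active. Aldh1a2, which makes retinoic acid, read 207, 70.9 and 59.7 in ZPA cells and 1434, 2463, 434 and 226 in non-ZPA cells (log2 difference -2.80 ± 0.69, limma adjusted p = 0.0609), and a block for run moved it past the test (-2.45 ± 0.40, limma adjusted p = 0.00725).

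Markers of some other cell types were also lower in ZPA cells, while those of others were not. Among all tested probe sets 1.36% were called lower in the fit of group alone and 2.26% with a block for run. Each sum below took 1 probe set per gene, that of the highest mean over the arrays. Of 8 muscle precursor genes 7 were measured, with summed intensities of 213 to 503 in ZPA cells and 1362 to 3701 in non-ZPA cells, and 4 of 7 tested probe sets were lower. Myf5 and Pax7 reached the filter level on no ZPA array. All 10 surface ectoderm genes were measured, at 943 to 2291 in ZPA cells and 3754 to 7484 in non-ZPA cells, and 3 of 16 probe sets were lower. The 9 measured genes of neural crest, Schwann cells and neurons summed to 1220 to 1605 in ZPA cells and 1723 to 2136 in non-ZPA cells. Without Dcx 1418139_at, at 93.2, 556 and 231 in ZPA cells and 650 to 1203 in non-ZPA cells, these sums overlapped. Of the 14 tested probe sets 5 lay below 0 (48.6% of all), with a median log2 difference of 0.27. In the limma fit of group alone 0 of 14 were lower (1 at an unadjusted p under 0.05), and 1 with a block for run. The 7 measured genes of primitive erythroid cells summed to 18707 to 58826 in ZPA cells and 37504 to 54554 in non-ZPA cells. Most of the ZPA sums was 1 probe set, Hbb-y 1436823_x_at, at 17008, 19226 and 45991. Another Hbb-y probe set, 1450621_a_at, read 451, 997 and 1370 in ZPA cells and 5240 to 15655 in non-ZPA cells. Of the 12 tested probe sets 11 lay below 0 (48.6% of all), with a median log2 difference of -2.04. In the fit of group alone 3 of the 12 were lower, or 7 with a block for run. The 7 leukocyte genes summed to 1501, 750.4 and 13508 in ZPA cells, highest on array 4, and to 1039 to 1700 in non-ZPA cells. The 8 endothelium genes summed to 864 to 2053 in ZPA cells and 830 to 2551 in non-ZPA cells, with 0 of 11 tested probe sets lower. For the 6 apical ectodermal ridge genes the sums were 402 to 1101 and 750 to 843, with 0 of 5 lower. No marker gene was listed at 0 on any array. The part of these cell types in the differences of the HoxB and HoxC genes was not tested.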

How the data were processed

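The authors deposited a linear signal intensity for each probe set on each array (type Mouse430_2, per the deposited records). GCOS 1.3 was used, per the submitters' processing notes, and how it summarised probes is not given in the sources used here. Per the labels, target was made by 2-cycle amplification of 50 ng total RNA, which favours the 3 prime ends of transcripts. Probe sets were named from the platform annotation where it gives 1 symbol (34945), and 932 with several and 9160 without one were not named. The 64 control probe sets were left out.

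Values were used as log2(intensity + 16), which understates the change of low genes. Tests were 2-sided and used lmFit and eBayes (trend = TRUE) of limma 3.58.1 under R 4.3.3, with Benjamini-Hochberg adjustment over all 27816 tested probe sets, and the test was checked on simulated data. A p without the run comes from the fit of group alone. The number of arrays limits the precision. The genes and lists were chosen with earlier results of these data known. All probe sets of the set are named, with members of the other lists that passed the test, the genes most like each member (by its tested probe set of highest mean), and any marker whose level stands beside a result. Aldh1a2, Hoxa3, Hoxd3, Hoxb7, Hoxb9, Hoxc10, Tbx4, Pitx1, Tbx5, Kdr, Met, Pax3, Lbx1, Myf5, Myod1 and Myog were named after their values were seen. The replicate number was not used as a pairing in the reported fit. Same-numbered arrays of both groups did not deviate together, which cannot exclude a pairing with so few arrays. The numbers in the sample titles alternate between ZPA and non-ZPA. Fits with the replicate number as a block are given at the end. Other settings tried were the pseudocount, scaling, filter, 1 probe set per gene, variance model, threshold, run, replicate number and leaving out each array.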

Additional observations from a re-analysis of the deposited data

Results flagged for a closer look

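Hoxb6 stood out because its arrays moved in opposite directions in the 2 runs. In run 1 the ZPA array read 153, above both non-ZPA arrays at 76.3 and 79.6. In run 2 the ZPA arrays read 57.2 and 112.5, below both non-ZPA arrays at 277 and 295. The change in the log2 difference, run 2 minus run 1, was -2.49 ± 0.80 SE, which did not pass limma's test over all probe sets (adjusted p = 0.145). No non-ZPA array lay apart from the other 3 by Dixon's test in any probe set of the HoxB and HoxC genes described here, and groups of 3 ZPA arrays are too small for it.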

How the results depend on the processing

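The count of probe sets called lower was 3 in the fit reported, where 1.36% of all tested were lower. It was 6 with median centring (1.8% of all), which moved every difference by -0.25 on the log2 scale. At an adjusted p under 0.10 it was 6 (3.19%), with the run as a block 5 (2.26%), in run 2 alone 5 (0.989%) and without the intensity trend 1 (0.374%). Leaving out 1 array gave 1 to 6, with 0.388% to 5.68% of all lower. The count was within 1.5 times the reported count, with 0.786% to 2.43% of all lower, under 7 further settings. They were pseudocounts of 1 and 64, quantile normalization, no filter or a filter at the 60th percentile, 1 probe set per gene, and values raised to the filter level (chosen after seeing the data). Run 1 alone holds 1 ZPA array, so its count is not given. The count called higher was 0 under every setting and without any single array. For the runs, 0 probe sets passed under every setting and without any single array. For the interaction of group and run, 1 passed at an adjusted p under 0.10, and 0 to 2 when 1 array was left out (without ZPA array 1+2 it could not be fitted). With the replicate number as a block, 4 probe sets were lower with the shared ZPA array as replicate 1 (1.38% of all). With it as replicate 2, 6 were lower (2.34% of all). The deviations of ZPA and non-ZPA arrays from their group means correlated between -0.106 and 0.0737. This cannot exclude a pairing, because ZPA replicates 1 and 2 are 1 array and the groups are small. Among called probe sets no direction turned, and Hoxb4 and Hoxb6, which did not pass, turned sign in 3 cases, Hoxb4 without non-ZPA replicate 3 and both genes in run 1 alone. ZPA signals below the filter level limit the sizes given for Hoxc5, Hoxc4, Hoxb5 and Hoxb2, while those of Hoxb3 1456229_at and Hoxc6 1427454_at were above it on every array.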
